A study of Mus musculus with 16 samples.

Results

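The cytosolic ribosome is built from ribosomal RNA and a set of proteins of the large subunit (Rpl genes) and the small subunit (Rps genes). The ribosomal protein genes examined here were the protein-coding genes whose symbol is Rpl or Rps followed by a number, together with Rplp0, Rplp1, Rplp2 and Rpsa, with kinases and pseudogenes left out. Of 55266 genes in the matrices, 89 met this rule, and they carried 507 of the 142435 transcripts. They comprised 76 core proteins (45 of the large and 31 of the small subunit), 11 paralogs and retrogenes, and 2 genes that share the symbol only. Those 2 were Rps19bp1, which encodes a protein that binds RPS19, and Rps23rg1, a gene that arose by retroposition.

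Libraries were made from the frontal cortex and the cerebellum of adult mice, either Upf3b-KO or littermates named Ctrl, and each tissue of each genotype gave 4 libraries. The product of Upf3b takes part in nonsense-mediated RNA decay (NMD). Sex, exact age and strain background were not stated in the sources used here. RNA was depleted of ribosomal RNA and read from whole tissue, so fewer cells of a type and less RNA per cell cannot be told apart. Replicate 1 of the Upf3b-KO cerebellum held only 64981 counts, against 27660078 to 35238677 in the other libraries. It was left out of every value below unless named, so n was 3 in that group and 4 in the others.

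Ribosomal protein genes are transcribed at high levels in nearly all cells, and their messages are short, with most of them under the shared control of a pyrimidine tract at the 5′ end. Several of them are known to splice into isoforms with a premature stop codon that are degraded by NMD, and for RPL3, RPL10A and RPL12 this switch serves as feedback on the protein's own level. A stop codon that lies well upstream of the last exon junction leaves a downstream exon junction (dEJ), the feature that marks a candidate NMD substrate. Their many processed pseudogenes are near-identical copies, so reads can be divided between a gene and its copies.

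The labels were checked against the data in all libraries used. Upf3b lay between 14.2 and 15.7 CPM (counts scaled to the same total in every library) in Ctrl frontal cortex and between 0.229 and 0.857 CPM in Upf3b-KO frontal cortex. Its cerebellar level lay between 20.9 and 23.6 CPM in Ctrl and between 0.617 and 0.965 CPM in Upf3b-KO. Summed markers of cortical excitatory neurons were at 1478 to 1537 CPM in Ctrl frontal cortex and 460 to 482 CPM in Ctrl cerebellum (1381 to 1397 and 291 to 299 CPM in Upf3b-KO, with 3 of 4 and 2 of 3 tested lower), and those of Purkinje cells at 235 to 243 and 6625 to 6766 CPM. Markers of other cell types moved with genotype. The 6 choroid plexus markers summed to 20.4 to 21.6 CPM in Ctrl and 2146 to 2199 CPM in Upf3b-KO frontal cortex, and to 31.3 to 35.6 and 1370 to 1391 CPM in cerebellum, and all 6 rose in both tissues. The 8 markers of striatal medium spiny neurons, all higher, summed to 162 to 174 CPM in Ctrl and 782 to 795 CPM in Upf3b-KO frontal cortex. In cerebellum their sum was 369 to 380 CPM in Ctrl and 336 to 346 CPM in Upf3b-KO, with 5 higher and 1 lower. The 4 microglia markers summed to 83.9 to 89.4 and 111 to 118 CPM in cerebellum (3 higher) and to 282 to 291 and 303 to 306 CPM in frontal cortex (1 higher, 1 lower). The 3 endothelial markers summed to 62.5 to 67.3 and 74 to 78.5 CPM in cerebellum (1 higher) and to 77.5 to 81.6 and 91.7 to 95.6 CPM in frontal cortex (2 higher). In cerebellum, the 4 oligodendrocyte markers rose from a sum of 5577 to 5667 CPM to 13330 to 13439 CPM, and the 4 Purkinje cell markers fell to a sum of 2451 to 2466 CPM. All 4 granule cell markers fell there too, from a sum of 1852 to 1878 CPM to 923 to 930 CPM. The 4 astrocyte markers summed to 2231 to 2272 CPM in Ctrl and 1739 to 1767 CPM in Upf3b-KO frontal cortex, all lower, and to 3657 to 3703 and 2224 to 2248 CPM in cerebellum, with 3 lower and 1 higher. The 4 oligodendrocyte markers also rose in frontal cortex, from 6988 to 7044 CPM to 9469 to 9533 CPM. No marker was at 0 in all libraries of a group, and the part of these shifts in the results below was not tested.

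Isoforms with a dEJ are where NMD would act on these genes directly, and the stretch that ends in the premature stop is shown for the 5 that passed the test in a tissue. Each line gives the last bases of the annotated reading frame, 5′ to 3′, from GENCODE vM39 on GRCm39, with the stop codon in capitals.
Rps19-205: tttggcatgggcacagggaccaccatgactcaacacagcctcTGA
Rps12-204: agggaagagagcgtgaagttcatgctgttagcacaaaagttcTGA
Rpl13a-216: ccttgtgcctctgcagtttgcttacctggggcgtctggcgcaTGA
Rpl12-201: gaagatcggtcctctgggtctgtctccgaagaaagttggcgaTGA
Rpsa-206: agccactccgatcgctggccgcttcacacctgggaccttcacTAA
The stop lay 273 nt before the last junction in Rps19-205 (chr7:24584058-24589231, plus strand), 238 nt in Rps12-204 (chr10:23661081-23662700, minus strand) and 94 nt in Rpl13a-216 (chr7:44775346-44778144, minus strand). It lay 358 nt before it in Rpl12-201 (chr2:32851752-32854055, plus strand) and 464 nt in Rpsa-206 (chr9:119956855-119960625, plus strand). All 5 transcripts carry the annotated type for nonsense-mediated decay.

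Ribosomal protein messages took a smaller share of the frontal cortex library in Upf3b-KO than in Ctrl mice, and a larger share of the cerebellar library. In Ctrl frontal cortex the 89 genes held 0.582%, 0.595%, 0.589% and 0.592% of the counts of the 4 libraries, and in Upf3b-KO frontal cortex 0.543%, 0.547%, 0.556% and 0.546%. In cerebellum the share was 0.414%, 0.415%, 0.409% and 0.417% in Ctrl and 0.44%, 0.441% and 0.438% in Upf3b-KO. The genotypes did not overlap in either tissue, and the directions were opposite. Large and small subunit genes showed the same order when summed apart, from 0.318% to 0.323% in Upf3b-KO against 0.342% to 0.349% in Ctrl frontal cortex for the large subunit, and from 0.205% to 0.212% against 0.218% to 0.224% for the small.

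**Figure D1:**
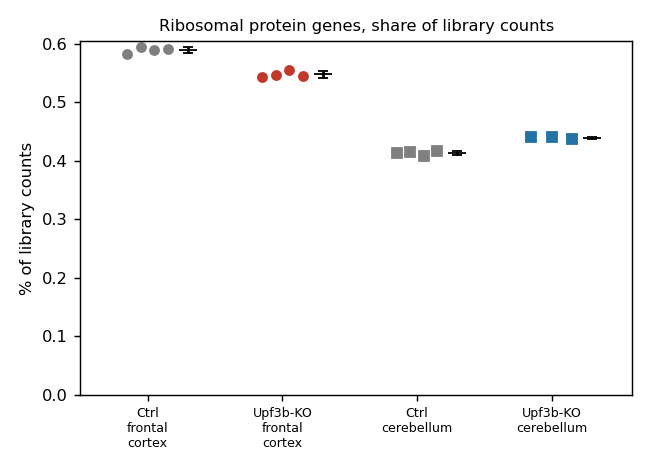
Share of each library's counts held by the 89 ribosomal protein genes (vertical axis, %), by tissue and genotype (horizontal axis); points are libraries and the black bar with whiskers is the mean ± SD (n = 4, and 3 for Upf3b-KO cerebellum). The Upf3b-KO libraries lie below Ctrl in frontal cortex and above Ctrl in cerebellum.

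Gene by gene, the shift in frontal cortex was broad and small. Of 85 genes tested, 64 were lower and 4 were higher in Upf3b-KO at an adjusted p under 0.05 (quasi-likelihood test of edgeR, adjusted by Benjamini-Hochberg over all genes), where 25.3% of all 18218 tested genes were lower and 28% were higher. The median log2 fold change was -0.16, beside 0.00 over all tested genes, and 81 of the 85 were below 0. Both subunits took part, with 36 of 45 core genes of the large subunit and 25 of 31 of the small subunit lower. In 35 of the 85 genes every Upf3b-KO library was below every Ctrl library in CPM, which held for 15.2% of all tested genes. The number of lower calls depended on the scaling of libraries. With library totals alone in place of the scaling factors, 38 were lower and 4 higher, against 16.8% of all genes lower, and the median was -0.09, beside 0.08 over all genes. Only 3 genes passed the limits used in the study (an adjusted p under 0.01 with a change of more than 2 times), a share that stands beside 10.2% of all genes. Of the 4 higher and the 3 past these limits, 2 (Rpl10l and Rpl39l) reached the count minimum in the Upf3b-KO group alone, so they had to differ to be tested.

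The 5 genes lower in Upf3b-KO frontal cortex with the smallest adjusted p were Rpl3, Rpl29, Rps14, Rpl4 and Rpl23. Rpl3 (ENSMUSG00000060036, chr15:79961825-79976069) encodes a protein near the peptidyl transferase centre. It was at 251, 248, 242 and 255 CPM in Ctrl and 160, 154, 168 and 163 CPM in Upf3b-KO, a log2 fold change of -0.70 ± 0.0231 (SE, adjusted p = 2.24e-16). The groups were far apart. With near-identical copies added, the log2 fold change of Rpl3 was -0.37.

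Rpl29 (ENSMUSG00000048758, chr9:106306586-106311297), which encodes a small protein on the surface of the large subunit, had the largest fall by its own counts, but not once near-identical copies were added (log2 -0.36 with them). Its level was 42.6, 42.1, 41 and 40.8 CPM in Ctrl and 20.2, 21.2, 23.6 and 22.4 CPM in Upf3b-KO frontal cortex, a log2 fold change of -1.01 ± 0.0474 (adjusted p = 9.92e-14). Rps14, a protein of the small subunit platform, fell from 118, 127, 119 and 122 CPM to 92.6, 90, 92.9 and 91.9 CPM (log2 -0.48 ± 0.0261, adjusted p = 1.16e-12). Rpl4, a core protein with an extension into the exit tunnel, was at 270, 272, 275 and 266 CPM in Ctrl and 244, 248, 248 and 246 CPM in Upf3b-KO (log2 -0.21 ± 0.0168, adjusted p = 5.68e-10). The fold change of Rpl4 was small, and its libraries were tight enough to keep the groups apart. Rpl23 was at 72.2, 75.6, 76.9 and 76 CPM in Ctrl and 62.9, 61, 62.1 and 61.5 CPM in Upf3b-KO (log2 -0.36 ± 0.0291, adjusted p = 9.83e-10).

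The 4 genes called higher in frontal cortex were Rpl13a, Rpl7a, Rpl10l and Rpl39l. Rpl13a, whose protein also acts outside the ribosome in control of translation, was at 142, 142, 135 and 146 CPM in Ctrl and 167, 167, 167 and 162 CPM in Upf3b-KO (log2 0.16 ± 0.0235, adjusted p = 7.36e-06). Rpl7a rose from 46, 47.6, 48.3 and 49.5 CPM to 52.4, 53.6, 58.5 and 53.6 CPM (log2 0.11 ± 0.0375, adjusted p = 0.0154), a call lost without Ctrl replicate 1 or Upf3b-KO replicate 3. The other two are paralogs at very low levels.

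In the cerebellum, 83 genes were tested, 37 were higher and 10 were lower in Upf3b-KO, where 33.1% of all 17785 genes were higher and 31.3% were lower. The share of the genes that rose was 20 of 45 in the large and 14 of 31 in the small subunit. The median log2 fold change was 0.08, beside 0.01 over all genes, and 59 of 83 were above 0. With library totals alone the median was 0.13, beside 0.06 over all genes. Then 44 were higher and 7 lower, where 6587 and 4856 of all 17785 genes were higher and lower. By edgeR and by DESeq2 0 passed the study's limits, which 13.2% of all cerebellar genes passed by edgeR, while 49 of the 83 (59%) had an unadjusted p under 0.05, beside 67.4% of all genes. Every Upf3b-KO library was above every Ctrl library for 43 genes and below for 8, beside 36.3% and 27.1% of all tested genes.

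Genes with some of the smallest adjusted p among those higher in Upf3b-KO cerebellum were Rpl13a, Rpl10, Rpl11 and Rpl36al. Rpl13a was at 92, 88.3, 89 and 94.3 CPM in Ctrl and 117, 115 and 114 CPM in Upf3b-KO (log2 0.29 ± 0.0282, adjusted p = 3.47e-08).

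Rpl10, a late-joining protein of the large subunit encoded on the X chromosome, rose from 42.5, 39.4, 41.2 and 42.1 CPM to 52.9, 55 and 49.1 CPM (log2 0.29 ± 0.0431, adjusted p = 7.99e-06). Rpl11, which with RPL5 and 5S RNA can bind MDM2, rose from 35.8, 36.9, 34 and 36.8 CPM to 47.3, 43.4 and 45.5 CPM (log2 0.29 ± 0.0435, adjusted p = 1.06e-05). For both, the groups did not overlap.

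Of the 10 genes lower in Upf3b-KO cerebellum, the 5 with the smallest adjusted p were Rpl29, Rpl3, Rps14, Rpl5 and Rplp0. Rpl29 was at 28.7, 27.7, 29.3 and 27.3 CPM in Ctrl and 16, 16.3 and 16 CPM in Upf3b-KO (log2 -0.86 ± 0.053, adjusted p = 4.24e-11). Rpl3 was at 149, 155, 158 and 158 CPM against 127, 127 and 125 CPM (log2 -0.35 ± 0.0255, adjusted p = 6.47e-10). For both genes every Upf3b-KO library was below every Ctrl library. With near-identical copies added, Rpl29 was at log2 -0.20, and Rpl3 was at -0.02 and no longer passed (adjusted p = 0.557). Rps14 was at 90.1, 86.2, 86.5 and 88 CPM in Ctrl and 72, 73.8 and 71.9 CPM in Upf3b-KO (log2 -0.32 ± 0.029, adjusted p = 1.12e-08).

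Rpl5, the partner of RPL11 in the 5S particle, was at 36.7, 35, 37.6 and 36.4 CPM in Ctrl and 28.4, 29 and 28.4 CPM in Upf3b-KO cerebellum (log2 -0.40 ± 0.0437, adjusted p = 1.88e-07). In frontal cortex its log2 fold change was -0.35 ± 0.0492 (adjusted p = 3.64e-06). The 2 partners moved in different directions in the cerebellum, and Rpl11 did not pass the threshold in frontal cortex (log2 -0.03 ± 0.0406, adjusted p = 0.525).

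**Figure D2:**
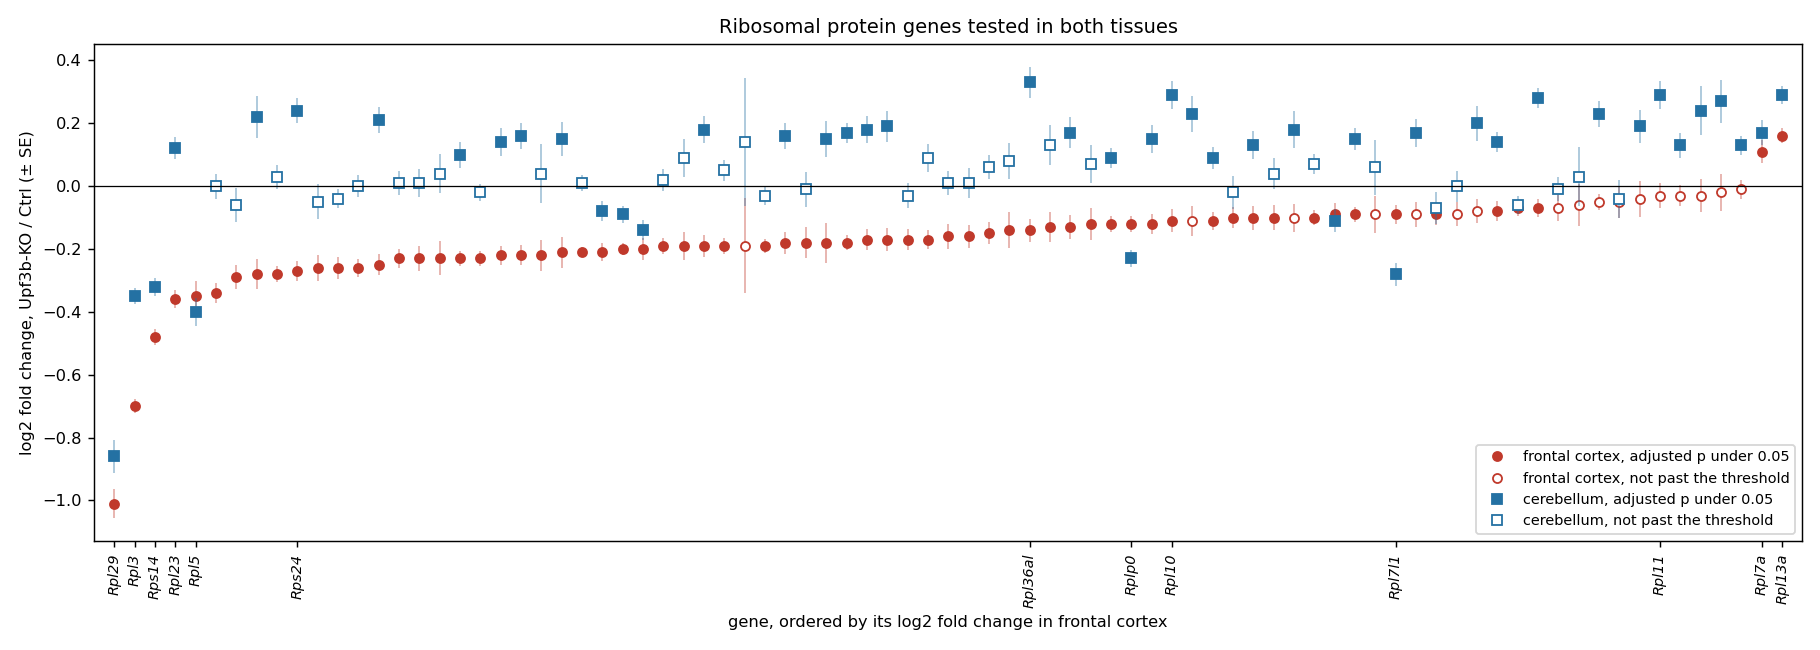
Log2 fold change of Upf3b-KO over Ctrl (vertical axis, ± SE) for the 83 genes tested in both tissues, ordered by the value in frontal cortex (red circles) with the value in cerebellum as blue squares; filled symbols have an adjusted p under 0.05. Most red circles lie just below 0 and most blue squares lie above them, while Rpl29, Rpl3 and Rps14 lie low in both tissues by their own counts. With near-identical copies added, the cerebellar values are -0.20 for Rpl29 and -0.02 for Rpl3, and that of Rpl3 does not pass. With library totals alone the red values shift up, to a median of -0.09. Only some of the genes described in the text are named on the axis.

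Among the 83 genes tested in both tissues, 24 were lower in frontal cortex and higher in cerebellum, 10 were lower in both and 2 (Rpl13a and Rpl7a) were higher in both. Of all 16754 genes tested in both tissues, 7.94%, 12.9% and 13.9% fell in these classes, so the share lower in both was near that of all genes. The 10 lower in both were Rpl3, Rpl5, Rpl7, Rpl7l1, Rpl13, Rpl18, Rpl29, Rpl32, Rplp0 and Rps14. Under the 17 alternatives run in each tissue, Rpl5, Rpl29, Rpl32 and Rps14 were past the threshold in both tissues throughout. In cerebellum the call was lost for Rpl3 with near-identical copies added, for Rpl13 and Rpl18 with library totals, for Rpl18 also without Upf3b-KO replicate 2, and for Rpl7 under 5 alternatives. In frontal cortex it was lost for Rpl7l1, Rplp0 and Rpl18 with library totals, for Rpl7l1 also without Upf3b-KO replicate 1 or 3, and for Rpl18 under 8 alternatives in all, 6 of which left out 1 library. The difference itself was tested as the interaction of tissue and genotype in one fit over 15 libraries. Both tissues came from the same mice, the labels do not say which libraries share a mouse, and the fit treated libraries as independent. The cerebellar effect was above the frontal cortex effect for 63 of 85 genes at an adjusted p under 0.05 and below it for 3, where these directions took 24.2% and 23.8% of all 19831 genes. The median difference was 0.22 on the log2 scale, beside -0.01 over all genes and 0.17 over 378 other protein-coding genes with a leading transcript under 1000 nt. It was above 0 for all 31 core genes of the small subunit, of which 25 passed.

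Rpl23, Rps24 and Rpl3 had the smallest adjusted p among positive differences. Rps24, a small subunit protein with known alternative last exons, was at 60.8, 61.4, 61 and 64.4 CPM in Ctrl and 52.8, 54, 54.5 and 54.5 CPM in Upf3b-KO frontal cortex. The cerebellar libraries were at 37.6, 37.8, 36 and 39 CPM in Ctrl and 44.9, 46.8 and 45.7 CPM in Upf3b-KO. The genotypes were apart in both tissues in opposite directions, with an interaction of 0.50 ± 0.0464 (adjusted p = 1.11e-09). For Rpl23 the difference was 0.46 ± 0.0428 (adjusted p = 1.03e-09), with 50.9, 48.4, 50.7 and 50.8 CPM in Ctrl and 58.1, 55.6 and 55.5 CPM in Upf3b-KO cerebellum. The 3 negative differences were those of Rpl7l1, Rplp0 and Rpl39l, the last of which reached the count minimum in Upf3b-KO frontal cortex alone.

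Message length was examined beside these contrasts. The leading transcript of the 89 genes had a median length of 806 nt and was under 1000 nt in 55. Among other protein-coding genes with a mean log2 CPM of at least 3, the 385 with a leading transcript under 1000 nt had a median of -0.07 on the log2 scale in frontal cortex, with 163 lower and 60 higher, and the 53 ribosomal protein genes of that class had -0.13, with 39 lower and 2 higher. In cerebellum the 363 other short genes had a median of 0.12, with 186 higher and 68 lower, and the 53 ribosomal protein genes had 0.09, with 27 higher and 4 lower. In frontal cortex the 18 ribosomal protein genes of a middle length class had a median of -0.20, with 16 lower, and the 11 of the longest class had -0.12, with 9 lower, where other genes of these lengths had -0.04 and -0.03. In cerebellum the medians of these classes were 0.04 and 0.01, beside 0.05 and -0.07 for other genes. In the interaction, the 378 other short genes had a median of 0.17, with 197 above 0 and 38 below it at an adjusted p under 0.05. The 53 short ribosomal protein genes had 0.22, with 41 above and 0 below. In the middle and longest classes their medians were 0.24 and 0.15, beside 0.07 and -0.05 for other genes. The part of length in the shift of the ribosomal protein genes was not tested.

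The stalk proteins recruit translation factors to the ribosome, and RPSA, also known as the laminin receptor, belongs to the small subunit. Rplp1 was at 63.6, 70.7, 67 and 68.9 CPM in Ctrl and 61.1, 60, 62.7 and 65.5 CPM in Upf3b-KO frontal cortex, and at 43.8, 43.7, 41 and 42.8 against 53.3, 50.7 and 47.1 CPM in cerebellum. The groups overlapped in frontal cortex and not in cerebellum. Its log2 fold changes were -0.19 ± 0.0355 (adjusted p = 9.52e-05) and 0.18 ± 0.0433 (adjusted p = 0.00117). Rplp2 had the same signs, at -0.10 ± 0.038 (adjusted p = 0.0375) and 0.13 ± 0.0447 (adjusted p = 0.0171), and its Ctrl and Upf3b-KO libraries overlapped in frontal cortex. With library totals alone the frontal cortex value of Rplp2 was -0.02 and did not pass, and its call was also lost without Ctrl replicate 4 or Upf3b-KO replicate 1, 3 or 4, and in cerebellum without Upf3b-KO replicate 2.

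Rplp0, which anchors the P1 and P2 proteins, moved otherwise in cerebellum. It was at 117, 119, 113 and 115 CPM in Ctrl and 104, 103 and 101 CPM in Upf3b-KO cerebellum (log2 -0.23 ± 0.0268, adjusted p = 5.06e-07). In frontal cortex the libraries overlapped, at 117, 121, 117 and 121 CPM in Ctrl and 113, 112, 120 and 116 CPM in Upf3b-KO (log2 -0.12 ± 0.0249, adjusted p = 0.000254), and the value was -0.05 and did not pass with library totals alone. Rpsa was lower in frontal cortex (log2 -0.18 ± 0.0244, adjusted p = 2.23e-06) and higher in cerebellum (log2 0.17 ± 0.0322, adjusted p = 0.000118), without overlap in either tissue.

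Near-identical copies bear directly on Rpl3 and Rpl29. Copies were taken as transcripts outside the rule that share at least 50% of their 31-base words with the transcripts of a member, and 371 were found, a set that includes snoRNA genes inside introns. Rpl3-ps1, a processed pseudogene on the X chromosome (chrX:13068810-13070019), shares 94.7% of its words with Rpl3. Over 1210 aligned bases it differs from Rpl3-201 at 2. The window around the first of these is shown because it is the kind of sequence on which the division of reads rests, with the differing base in capitals (C137A, counted from the 5′ end of Rpl3-201).
Rpl3-201: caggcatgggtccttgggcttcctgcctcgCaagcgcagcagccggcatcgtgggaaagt
Rpl3-ps1-201: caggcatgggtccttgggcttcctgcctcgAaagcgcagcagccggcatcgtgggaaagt
Rpl3-ps1 was listed at 4.07, 3.98, 3.67 and 3.62 CPM in Ctrl and 45.2, 44.8, 41.9 and 46.4 CPM in Upf3b-KO frontal cortex. The cerebellar libraries listed it at 3.09, 2.74, 3.6 and 3.26 CPM in Ctrl and 34.5, 32.1 and 39.8 CPM in Upf3b-KO. The pseudogene thus stood far higher in every Upf3b-KO library while Rpl3 stood lower. When the counts of its copies were added to Rpl3, the log2 fold change was -0.37 in frontal cortex (adjusted p = 5.76e-13) and -0.02 in cerebellum (adjusted p = 0.557), so the cerebellar fall did not remain past the threshold.

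A pseudogene was also listed higher where Rpl29 was lower. Gm8210, a processed pseudogene on chromosome 1 (chr1:43228316-43228798), matches Rpl29-201 at 480 of 483 aligned bases, and the window around the first difference (C189A, counted from the 5′ end of Rpl29-201) is given for the same reason.
Rpl29-201: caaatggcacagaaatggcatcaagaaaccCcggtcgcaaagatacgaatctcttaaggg
Gm8210-201: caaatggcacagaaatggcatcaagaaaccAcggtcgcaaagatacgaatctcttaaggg
Summed over all copies of Rpl29, the level was 0.539 ± 0.215 CPM (SD, n = 4) in Ctrl and 12.8 ± 1.59 CPM (n = 4) in Upf3b-KO frontal cortex, and 0.309 ± 0.0726 (n = 4) and 9.7 ± 1.06 CPM (n = 3) in cerebellum. Gm8210 was at 5.72, 11.5, 2.72 and 11.5 CPM and another copy, Gm13841, at 8.73, 0, 9.23 and 0 CPM in the 4 Upf3b-KO libraries of frontal cortex, so the copy that held the counts differed between libraries. With the copies added, Rpl29 had a log2 fold change of -0.36 in frontal cortex (adjusted p = 6.64e-08) and -0.20 in cerebellum (adjusted p = 0.00167), and it no longer passed the study's limits.

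**Figure D3:**
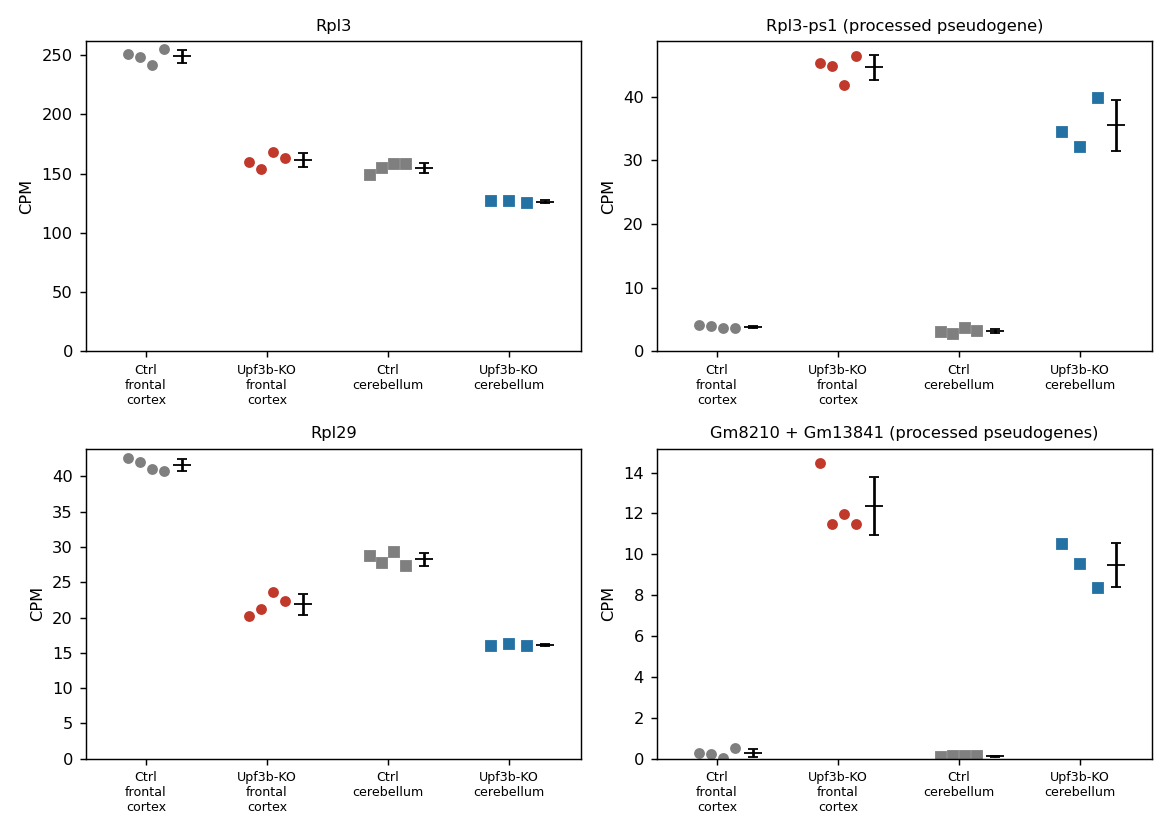
CPM (vertical axes) of Rpl3, Rpl3-ps1, Rpl29 and the sum of Gm8210 and Gm13841 in each library, by tissue and genotype; points are libraries and black bars the mean ± SD. In both tissues the 2 genes are lower and their pseudogenes higher in every Upf3b-KO library.

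Rpl5 has copies on chromosome 7, Gm70833 and Gm15500, which share nearly all of their words with it, and Gm70833 was listed above Rpl5 in the mean of every group while Gm15500 was below it. The copies of Rpl5 summed to 59 ± 1.83 CPM (SD, n = 4) in Ctrl and 52.8 ± 0.411 CPM (n = 3) in Upf3b-KO cerebellum, and to 71.5 ± 4.57 (n = 4) and 58.9 ± 1.38 CPM (n = 4) in frontal cortex. The fall of Rpl5 passed the threshold with these added, at -0.35 in frontal cortex (adjusted p = 2.44e-10) and -0.28 in cerebellum (adjusted p = 5.98e-08). Over all members, adding the copies gave 66 lower and 4 higher in frontal cortex and 40 higher and 9 lower in cerebellum. Of all tested genes, 4626 were then lower and 5108 higher of 18127 in frontal cortex. In cerebellum 5899 were higher and 5585 lower of 17702.

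The paralogs are genes that can take the place of a core protein in some tissues. Rpl10l and Rpl39l stand in for X-linked Rpl10 and Rpl39 in male germ cells. Rpl10l (chr12:66329273-66331181) was at 0.15, 0.212, 0.058 and 0.155 CPM in Ctrl and 0.953, 0.751, 0.659 and 1.08 CPM in Upf3b-KO frontal cortex. Rpl39l (chr16:9949671-9992780) was at 0.36, 0.152, 0.29 and 0.0931 CPM in Ctrl and 1.19, 1.27, 1.61 and 1.14 CPM in Upf3b-KO. All Upf3b-KO libraries were above all Ctrl libraries for both, at levels where 3 counts, taken as the floor, correspond to 0.087 to 0.0989 CPM, and a filter at a minimum count of 50 removed both. Since both reached the minimum of 10 counts as a group in Upf3b-KO alone (with 1 Ctrl library of Rpl39l), they are given as levels with no test.

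In cerebellum both genes were too low to be tested within the tissue. Rpl39l was at 0.0289, 0.0294, 0.033 and 0.181 CPM in Ctrl and 0.0349, 0.0284 and 0 CPM in Upf3b-KO, and 1 Ctrl library was above the floor. Spermatid markers moved with the 2 paralogs in frontal cortex. The 8 markers (Tnp1, Tnp2, Prm1, Prm2, Odf1, Akap4, Ldhc and Spem1) summed to 23.9 to 27.6 CPM in Ctrl and 197 to 206 CPM in Upf3b-KO frontal cortex, and all 8 rose. In cerebellum they summed to 1.19 to 1.32 and 12.7 to 13.6 CPM, and 7 of 7 tested rose. None of the markers was at 0 throughout a group, and their part in the higher levels of Rpl10l and Rpl39l was not tested.

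The other paralogs were broadly expressed. Rpl22l1, the paralog of Rpl22, fell from 56.9, 53.7, 55.9 and 55 CPM to 49, 47.8, 49.6 and 49.9 CPM in frontal cortex (log2 -0.25 ± 0.0326, adjusted p = 1.11e-06). In cerebellum it rose from 37.7, 40, 40 and 39.1 CPM to 48.7, 45 and 46.8 CPM (log2 0.21 ± 0.0408, adjusted p = 0.000214). Rpl22 itself did not pass in either tissue, at -0.05 ± 0.0508 (adjusted p = 0.434) and -0.04 ± 0.0606 (adjusted p = 0.544).

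Rpl36al, the autosomal copy of Rpl36a, rose in cerebellum from 34.1, 34.7, 35.6 and 31.6 CPM to 47.8, 42.6 and 42.5 CPM (log2 0.33 ± 0.0504, adjusted p = 1.29e-05), while Rpl36a was at 0.08 ± 0.0588 (adjusted p = 0.219) and, with near-identical copies added, at 0.16 (adjusted p = 0.0283). In frontal cortex Rpl36al was lower (log2 -0.14 ± 0.0362, adjusted p = 0.00219), a call lost with library totals alone. Rps27l, a p53-responsive paralog of Rps27, rose in cerebellum from 13.8, 15.5, 15.6 and 14.2 CPM to 18.9, 19 and 17.4 CPM (log2 0.27 ± 0.0686, adjusted p = 0.00203), and Rps27 was at -0.00 ± 0.0495 there (adjusted p = 0.978). The retrogene Rps27rt was at 3.02 to 4.14 CPM in Ctrl frontal cortex and did not pass in either tissue (-0.19 ± 0.151, adjusted p = 0.3, and 0.14 ± 0.204, adjusted p = 0.575).

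Rpl7l1, related to Rpl7 and known for a role in ribosome assembly, was lower in Upf3b-KO cerebellum, at 71.1, 75, 75.2 and 79.8 CPM in Ctrl and 65.6, 63.9 and 63 CPM in Upf3b-KO (log2 -0.28 ± 0.037, adjusted p = 2.23e-06). Rpl7 was at -0.08 ± 0.0312 (adjusted p = 0.0232), a call lost without Ctrl replicate 3 or Upf3b-KO replicate 2. In frontal cortex Rpl7l1 was at -0.09 ± 0.0308 (adjusted p = 0.0207), at -0.01 with library totals alone and not past the threshold without Upf3b-KO replicate 1 or 3, and Rpl7 at -0.21 ± 0.0288 (adjusted p = 2.89e-06). Rpl39 and Rpl10, the core partners of the germ cell paralogs, had log2 fold changes of -0.21 ± 0.0494 (adjusted p = 0.00135) and -0.11 ± 0.0357 (adjusted p = 0.0112) in frontal cortex, where that of Rpl10 was -0.04 and did not pass with library totals alone. Rps4x, the X-linked form of Rps4, was at 70.9, 71.2, 70.9 and 72.7 CPM in Ctrl and 58.2, 59.1, 62.9 and 57.6 CPM in Upf3b-KO frontal cortex (log2 -0.34 ± 0.0311, adjusted p = 5.77e-09), and at -0.00 ± 0.0398 in cerebellum (adjusted p = 0.93). Rpl3l, the form of striated muscle, stayed at or under 0.325 CPM in every library used. Rps4l was listed at 0 in all libraries used but 1 of Ctrl cerebellum, at 0.995 CPM.

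At the level of transcripts, 250 of the 507 were tested in frontal cortex, and 34 were lower and 7 higher in Upf3b-KO, against 7.68% and 8.67% of all 42318 tested transcripts. The number lower was not stable, at 21 with the replicate number as a block, 22 with library totals and 53 with DESeq2, where 2148, 2255 and 4697 of all tested transcripts were lower. In cerebellum, of 252 tested, 32 were higher and 9 lower, against 12.3% and 10.3% of all 44388. The study's limits were passed by 5 of the 250 in frontal cortex, beside 3.22% of all transcripts, and by 4 of the 252 in cerebellum, beside 4.76%. The count minimum was met in 1 genotype alone by 28 tested transcripts in frontal cortex, of which 2 were called higher, and by 30 in cerebellum, of which 1 was called higher and 1 lower. The lower transcripts in frontal cortex were mainly those that encode the full protein, with 30 of 151 tested protein-coding transcripts without a dEJ lower and 1 higher, where 10.7% and 10.6% of all 26357 such transcripts were lower and higher. Such transcripts carried 85.5% to 85.8% of the counts of the ribosomal protein genes in Ctrl frontal cortex and 84.2% to 85% in Upf3b-KO. The count of transcripts that rose in cerebellum was not stable, at 5 with the replicate number as a block and 6 with replicate 1 of the Upf3b-KO cerebellum included. Over all tested transcripts the count fell too, from 5472 of 44388 to 2786 with the block and to 2037 of 40281 with replicate 1 included.

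Of the 26 transcripts with a dEJ, 13 were tested in each tissue and the other 13 were under the filter, at means of at most 0.331 CPM in frontal cortex and 0.33 CPM in cerebellum. Those tested had medians of 0.16 (frontal cortex) and 0.19 (cerebellum) on the log2 fold change scale, where tested protein-coding transcripts without a dEJ of all ribosomal protein genes had -0.15 and 0.12. Over all genes, transcripts with a dEJ had medians of 0.28 and 0.24. Taken as a share of the counts of the ribosomal protein genes, dEJ transcripts held 3.42% to 3.72% in Ctrl and 3.76% to 4.09% in Upf3b-KO frontal cortex, which did not overlap, and 3.4% to 3.78% and 3.62% to 3.75% in cerebellum, which did. The total under this share was itself lower in Upf3b-KO frontal cortex, with means of 0.548% of library counts against 0.589% in Ctrl. Protein-coding transcripts with an incomplete end did not overlap there either, at 1.29% to 1.38% in Ctrl and 1.46% to 1.51% in Upf3b-KO. A higher share is thus no measure of a higher level of dEJ transcripts. Leaving out 1 library moved the frontal cortex median to between 0.01 and 0.22, lowest without Upf3b-KO replicate 4, and the cerebellar median was 0.49 without replicate 4 of Upf3b-KO.

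In frontal cortex 3 of the 13 rose and 2 fell, where 9.94% of all tested transcripts with a dEJ rose and 2.06% fell. Rps19-205, from a gene whose human form is mutated in Diamond-Blackfan anaemia, passed in both tissues. It was at 7.15, 6.87, 6.89 and 6.18 CPM in Ctrl and 11.4, 12.3, 9.3 and 10 CPM in Upf3b-KO frontal cortex (log2 0.60 ± 0.117, adjusted p = 0.00971). In cerebellum it was at 6.14, 4.33, 5.04 and 5.41 CPM in Ctrl and 10.9, 7.55 and 9.18 CPM in Upf3b-KO (log2 0.81 ± 0.181, adjusted p = 0.0174). Its share of the counts of Rps19 was 7.49% ± 0.705 in Ctrl (SD, n = 4) and 12.1% ± 1.68 in Upf3b-KO frontal cortex (n = 4), and 10.3% ± 1.24 (n = 4) and 16.4% ± 2.7 in cerebellum (n = 3), while the gene as a whole was at log2 -0.11 and 0.09.

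Rps12-204 was at 0.393, 0.687, 0.831 and 0.385 CPM in Ctrl and 2.17, 2.64, 1.65 and 1.94 CPM in Upf3b-KO frontal cortex (log2 1.80 ± 0.348, adjusted p = 0.00939). In cerebellum it was at 0, 0.478, 0.208 and 0.538 CPM in Ctrl and 2.72, 1.25 and 1.3 CPM in Upf3b-KO, which did not overlap, and since it met the count minimum there through the Upf3b-KO group alone, no test is given. Rpl13a-216 was at 3.05, 5.12, 4.82 and 4.7 CPM in Ctrl and 8.9, 9.2, 10.6 and 13.9 CPM in Upf3b-KO frontal cortex (log2 1.21 ± 0.212, adjusted p = 0.00578). In cerebellum its libraries overlapped, at 7.21, 7.4, 1.85 and 5.1 CPM in Ctrl and 4.05, 5.56 and 5.36 CPM in Upf3b-KO (log2 -0.11 ± 0.451, adjusted p = 0.902). The change of a dEJ transcript between tissues was not tested.

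The 2 dEJ transcripts that fell in frontal cortex were abundant forms of their genes. Rpl12-201, annotated with a premature stop, held 74.5% ± 2.61 of the counts of Rpl12 in Ctrl frontal cortex (SD, n = 4). It was at 32.1, 32.4, 35.2 and 34.9 CPM in Ctrl and 28.4, 29.7, 28.8 and 27.3 CPM in Upf3b-KO (log2 -0.30 ± 0.0483, adjusted p = 0.00365), near the value of the whole gene (log2 -0.26 ± 0.0416, adjusted p = 1.41e-05). Rpsa-206 held 60.3% ± 3.11 of Rpsa in Ctrl frontal cortex (n = 4). It was lower there (log2 -0.20 ± 0.0463, adjusted p = 0.0196) and higher in cerebellum (log2 0.16 ± 0.0398, adjusted p = 0.0256), as was the sum of its gene.

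**Figure D4:**
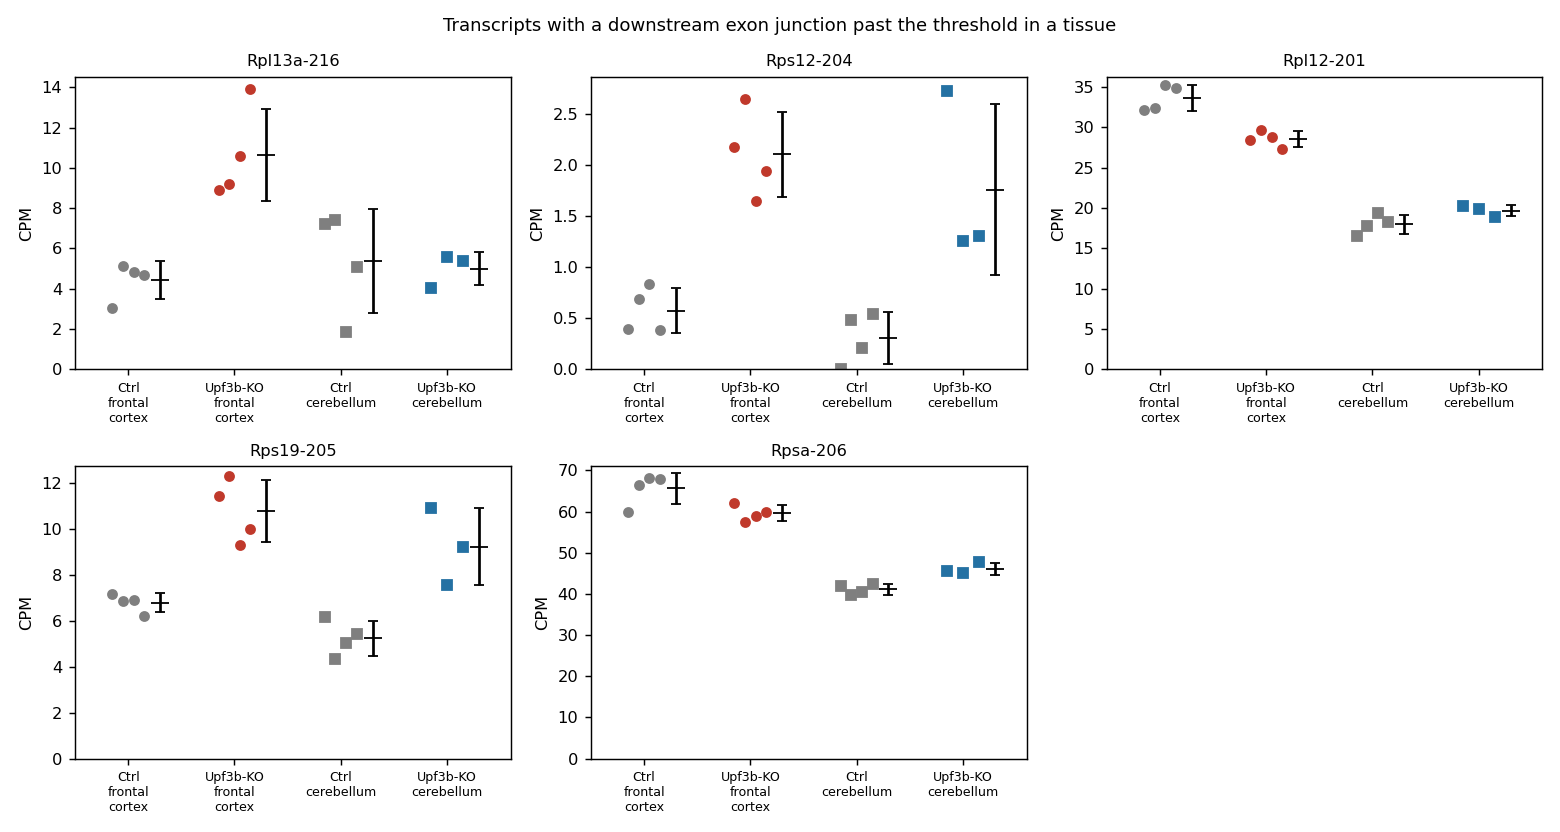
CPM (vertical axes) of the 5 dEJ transcripts past the threshold in at least 1 tissue, in each library by tissue and genotype; points are libraries and black bars the mean ± SD. Rps19-205 and Rps12-204 are higher in the Upf3b-KO libraries of both tissues, Rpl13a-216 in those of frontal cortex, and Rpl12-201 and Rpsa-206 are lower in those of frontal cortex on average.

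The genes known for feedback through NMD were examined as a set of 3. Of the 2 dEJ transcripts of Rpl10a, Rpl10a-211 was listed at or near 0 and Rpl10a-203 was at a mean of 2.16 CPM in Ctrl and 2.65 CPM in Upf3b-KO frontal cortex (log2 0.23, adjusted p = 0.668), and the gene did not pass there (log2 -0.04 ± 0.0568, adjusted p = 0.541). In cerebellum Rpl10a-203 was at means of 1.07 and 1.41 CPM (log2 0.39, adjusted p = 0.709), and Rpl10a as a whole was higher in Upf3b-KO (log2 0.19 ± 0.0514, adjusted p = 0.00295), with every Upf3b-KO library above every Ctrl library. The dEJ transcript of Rpl3, Rpl3-205, stayed at means of 0.162 and 0.22 CPM in frontal cortex and was not tested. For Rpl12 the dEJ transcript was Rpl12-201, given above, which did not pass in cerebellum (log2 0.13, adjusted p = 0.302).

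Some of the isoforms that rose, 2 of the 7 in frontal cortex and 4 of the 32 in cerebellum, had no defined coding sequence, which were 10% and 18.2% of the tested transcripts of that kind, beside 4.54% and 6.94% over all genes. Protein-coding transcripts without a dEJ made up 22 of the 32 in cerebellum, 14.5% of those tested, near the 16.6% of all genes. Among those with no defined coding sequence, Rps6-204 was at 9.79, 9.26, 9.7 and 9.02 CPM in Ctrl and 14.8, 17.1, 15.5 and 16.3 CPM in Upf3b-KO frontal cortex (log2 0.69 ± 0.0746, adjusted p = 0.000482). It rose in cerebellum too, from 2.48, 2.61, 1.48 and 3.32 CPM to 5.63, 6.46 and 7.82 CPM (log2 1.42 ± 0.286, adjusted p = 0.0114). Rps6 encodes the small subunit protein that is phosphorylated by S6 kinase. Rpl7a-203 rose from 1.74, 3.08, 2.2 and 2.22 CPM to 6.42, 5.09, 5.86 and 4.39 CPM in frontal cortex (log2 1.17 ± 0.222, adjusted p = 0.00863) and was at log2 0.79 ± 0.222 in cerebellum (adjusted p = 0.0438). Rpl14-204 rose in cerebellum from 0.502, 0.513, 0.329 and 0.69 CPM to 2.25, 2.05 and 2.09 CPM (log2 2.08 ± 0.309, adjusted p = 0.00292).

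Rps24-202, the main form of Rps24, was lower in frontal cortex, at 50.6, 49.7, 50.7 and 52.8 CPM in Ctrl and 39.9, 40.3, 41.9 and 42.4 CPM in Upf3b-KO (log2 -0.37 ± 0.0333, adjusted p = 0.000163). Its share of the gene was 82.3% ± 1.05 in Ctrl and 76.2% ± 1.45 in Upf3b-KO frontal cortex (n = 4 each), and 65.5% ± 4.62 in Ctrl cerebellum (n = 4). Rpl21-203 was at 7.02, 5.44, 4.9 and 6.74 CPM in Ctrl and 17.5, 10.7 and 13.9 CPM in Upf3b-KO cerebellum (log2 1.22 ± 0.207, adjusted p = 0.00531). Rpl13a-201 rose in cerebellum with its gene (log2 0.47 ± 0.0609, adjusted p = 0.00154).

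The estimate of 1 isoform of Rpl22 moved against that of a near-identical form. Rpl22-204 and Rpl22-208 are 2225 and 2224 nt long and share their start on chromosome 4 (152410150), with ends at 152418528 and 152418527. Rpl22-204 was at 17.2, 16.6, 18.8 and 18.4 CPM in Ctrl cerebellum and at no more than 0.00593 CPM in Upf3b-KO cerebellum, so it reached the count minimum in the Ctrl group alone and its test is not used. In Ctrl frontal cortex it was at 16.6, 22.3, 0.00174 and 0.00466 CPM, so it differed between libraries of 1 group. The sum of the pair lay between 18.6 and 22.3 CPM in Ctrl and 18.4 and 21.1 CPM in Upf3b-KO cerebellum, and between 19.4 and 22.3 and 19.6 and 23.7 CPM in frontal cortex, with overlap in both tissues. Rpl5-206, which has an incomplete coding end, was listed at 0 in all 4 Ctrl libraries of cerebellum and at 4.65, 3.02 and 4.44 CPM in Upf3b-KO, and it was tested through the Upf3b-KO group alone, so no p is given, while in frontal cortex the genotypes overlapped.

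In Ctrl mice, ribosomal protein messages were lower in cerebellum than in frontal cortex almost throughout. Each tissue was deposited as its own matrix, so tissue and matrix cannot be told apart. Of 85 genes tested, 83 were lower in cerebellum and 1 was higher, against 37.3% and 35.8% of all 19831 genes. Among the 83 were Rpl10l and Rpl39l, which reached the count minimum as a group only in Upf3b-KO frontal cortex, so their calls are not used. The Ctrl libraries of both overlapped between the tissues. The call of Rps27l (adjusted p = 0.0452) was lost under 7 alternatives. The median log2 difference was -0.54, beside -0.03 over all genes, and no Ctrl library of cerebellum reached a Ctrl library of frontal cortex in 79 of the genes, which held for 32% of all genes. The exception was Rpl7l1, at 54.3 to 55.1 CPM in frontal cortex and 71.1 to 79.8 CPM in cerebellum (log2 0.43 ± 0.0315, adjusted p = 2.87e-12). The gene that did not pass was Rpl18, at -0.00 (adjusted p = 0.963).

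The genes with the smallest adjusted p in this contrast were Rps2, Rpl13, Rpl4, Rpl41 and Rpl37. Rps2, at the entry of the messenger RNA channel, was at 136, 131, 140 and 138 CPM in Ctrl frontal cortex and 60.8, 63, 60.2 and 64.6 CPM in Ctrl cerebellum (log2 -1.16 ± 0.029, adjusted p = 2.64e-22). Rpl41, the smallest ribosomal protein, was at 126 to 130 against 59.6 to 70.3 CPM (log2 -0.98 ± 0.0316, adjusted p = 7.65e-20), and Rpl37 at 63 to 66.8 against 30.8 to 32.4 CPM (log2 -1.06 ± 0.0356, adjusted p = 1.84e-19). Rpl13 and Rpl4 had log2 differences of -0.73 ± 0.0207 (adjusted p = 4.32e-21) and -0.63 ± 0.0199 (adjusted p = 4.11e-20). Rplp0 was at -0.06 ± 0.0244 (adjusted p = 0.0225), a call lost with library totals and without Ctrl frontal cortex replicate 2 or 4 or Ctrl cerebellum replicate 3. The other short protein-coding genes had a median of -0.11 in this contrast (378 genes), against -0.58 for the 53 short ribosomal protein genes.

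Levels per length were computed as TPM, the counts divided by the annotated length and scaled to the same sum in every library. The genes highest per length in Ctrl frontal cortex were Rpl13 at 655 ± 9.83 TPM, Rpl41 at 533 ± 6.81, Rpl13a at 508 ± 10.9, Rps14 at 487 ± 14.3 and Rpl3 at 444 ± 9.63 (SD, n = 4 each). In Ctrl cerebellum the highest were Rpl13 at 421 ± 11.9, Rps14 at 372 ± 10 and Rpl13a at 339 ± 7.82 TPM, and Rpl3 was at 290 ± 8.43 TPM (n = 4 each). The first place of Rpl13 exceeded the spread in both tissues, while the ranges of mean ± SD of Rpl13a and Rps14 overlapped in frontal cortex. The lowest were Rpl10l, Rpl3l, Rpl27rt and Rps23rg1 in both tissues, with Rps4l in frontal cortex and Rpl39l in cerebellum, all at or under 0.393 TPM in the tissue in which they were among the lowest.

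**Figure D5:**
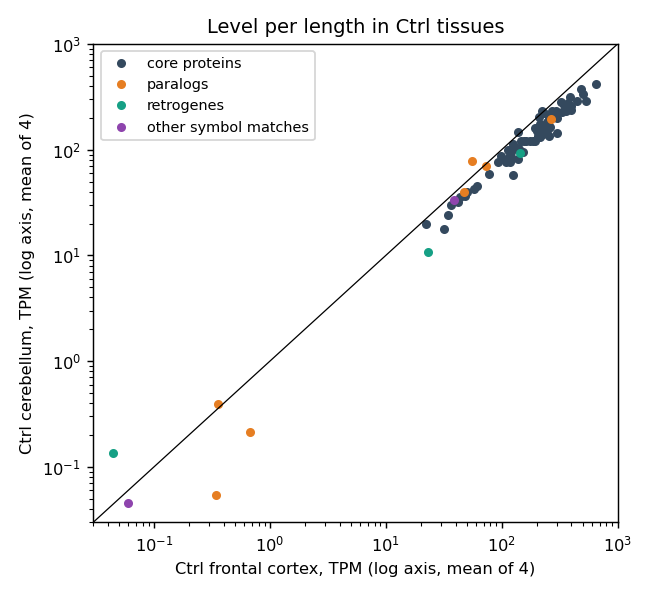
Mean TPM (n = 4) of each ribosomal protein gene in Ctrl frontal cortex (horizontal log axis) and Ctrl cerebellum (vertical log axis), coloured by class, with the line of equal level; Rps4l, at 0 in frontal cortex, is not drawn. Nearly all core genes lie below the line, and the paralog Rpl7l1 lies above it.

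Other genes of the translation machinery were taken as lists. Of 12 translation factors whose messages carry the same 5′ tract, 8 (66.7%) were lower and none higher in frontal cortex (median -0.11), beside 25.3% of all genes lower, while in cerebellum 4 (33.3%) were higher and 6 (50%) lower (median -0.07), beside 33.1% and 31.3%. Of 78 mitochondrial ribosomal proteins, which belong to a separate ribosome, 24 (30.8%) were lower and 10 (12.8%) higher in frontal cortex (median -0.05), and 34 (43.6%) were higher and 12 (15.4%) lower in cerebellum (median 0.10). The share lower in frontal cortex was near that of all genes. Between Ctrl tissues 32 (41%) of these 78 were higher and 20 (25.6%) lower in cerebellum (median 0.06), beside 35.8% and 37.3% of all genes. Of 26 ribosome biogenesis genes, 7 (26.9%) were lower and 4 (15.4%) higher in frontal cortex (median -0.02), and 12 (46.2%) lower and 6 (23.1%) higher in cerebellum (median -0.01), and the share lower in frontal cortex was again near that of all genes.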

How the data were processed

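Libraries (SMART-Seq v4 PLUS, paired-end, NovaSeq) were aligned by the authors with STAR 2.5.2b to GRCm39 (Ensembl release 105) and quantified with RSEM. The deposited tables hold RSEM expected counts for each transcript, neither scaled nor filtered, and no source used here says whether strand was used, which leaves overlapping genes uncertain. Of 142435 transcripts, 141102 matched GENCODE vM39, and gene values are sums of matched transcripts. A dEJ was assigned where the annotated stop lay at least 50 nt before the last exon junction. CPM used library totals.

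Expected counts were rounded. The filter on low counts was filterByExpr at a minimum count of 10, and libraries were scaled by TMM. Groups were compared in edgeR 4.0.16 (R 4.3.3) by its quasi-likelihood F test, and p-values were adjusted over all features (Benjamini-Hochberg). The SE is the log2 fold change divided by the square root of F. Within-tissue fits used that tissue's libraries, and the interaction and the Ctrl tissue contrast used 15. Calls were made at an adjusted p under 0.05. On simulated counts with 200 genes changed by a fold of 2, the gene fits recovered 200 in both tissues with 21 (frontal cortex) and 16 (cerebellum) false calls, and the transcript fits recovered 128 and 106. The planned test of isoform shares (diffSpliceDGE) recovered 9 of 158 changed transcripts with 41 false calls in frontal cortex at that fold, so shares are given as values without a test.

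Named genes are the stalk genes and Rpsa, listed paralogs, the 3 genes with NMD feedback, those past the study's limits, and the genes with the smallest adjusted p in each direction and contrast or the highest and lowest TPM. Named transcripts followed the same rule, with every dEJ transcript past the threshold. Rpl18 and the genes of the list lower in both tissues were added after their values were seen. The members, lists and tests were chosen with earlier results of these data known. Replicate libraries differed by more than counting noise in each of 21 pairs (mean chi-square 2.74 to 3.89 with 1 degree of freedom). They were still very alike, with a median coefficient of variation of 3.13% over the 82 ribosomal protein genes above 10 CPM. Both tissues came from the same 4 mice of each genotype, and labels do not tie libraries to single animals, so p-values measure the spread between these libraries. Whether this equals the spread between mice was not tested. One member of the gene family was left out, and results of some other genes are not reported here. Alternatives were median-of-ratios scaling, TMM without the members, library totals (chosen after seeing the data), other filters, DESeq2 1.42.0, a replicate block, and others given with their values.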

Additional observations from a re-analysis of the deposited data

Results flagged for a closer look

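The effect of genotype differed between the tissues, by the interaction in edgeR over 15 libraries, for 63 members with a higher value in cerebellum and 3 with a lower one. Among named genes with a higher value, the difference on the log2 scale was 0.50 for Rps24, 0.46 for Rpl23 and Rpl36al, 0.45 for Rpl22l1, 0.39 for Rpl10, 0.36 for Rplp1, 0.34 for Rpl3, Rpl39 and Rpsa, and 0.33 for Rps4x. It was 0.32 for Rpl37 and Rpl41, 0.31 for Rpl11, 0.28 for Rps27l, 0.23 for Rpl10a and Rps2, 0.22 for Rpl36a, 0.21 for Rpl4 and Rplp2, 0.20 for Rpl12, 0.15 for Rps14, 0.12 for Rpl13a, 0.11 for Rpl7 and 0.10 for Rpl13. The named genes with a lower value were Rpl39l at -3.98, Rpl7l1 at -0.20 and Rplp0 at -0.11. The interaction no longer passed under 11 alternatives for Rpl7, 7 for Rpl10a, 6 for Rpl36a (the replicate block among them, at 0.22), 3 for Rplp0 and 2 for Rpl12, most of them leaving out 1 library. Rpl39l was tested through Upf3b-KO frontal cortex alone, so its value is no evidence of a difference, and it did not pass without replicate 4 of Ctrl cerebellum.

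In 11 of 114 groups of 4 libraries checked over the 38 named genes, 1 library stood apart from the other 3 by Dixon's test, and chance gives about 1 in 20. In Ctrl cerebellum the library apart was at 48.4 CPM for Rpl23 (group median 50.7), 16.7 for Rpl36a (18), 30.8 for Rpl37 (32.4), 35.7 for Rpl7a (37.7), 0.0882 for Rpl10l (0), 0.181 for Rpl39l (0.0312) and 0.995 for Rps4l (0). In Ctrl frontal cortex it was at 30.4 CPM for Rpl10a (37.4), 16.9 for Rps27l (15.6) and 72.7 for Rps4x (71), and in Upf3b-KO frontal cortex at 162 CPM for Rpl13a (167).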

How the results depend on the processing

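With a minimum count of 50, 2 members were higher and 0 were past the study's limits in frontal cortex, where 4435 and 1047 of all 14646 genes were. With library totals only, the lower genes there were 38 and the lower transcripts 22, and the medians were -0.09 in frontal cortex and 0.13 in cerebellum. The lower transcripts of frontal cortex were 53 with DESeq2 and 22 at an adjusted p under 0.01. Without a filter, 2 genes passed the study's limits in cerebellum, 15 transcripts rose there, and 2 genes were higher in Ctrl cerebellum than in Ctrl frontal cortex. Over all features these were 2880 of 34135 genes, 4412 of 97931 transcripts and 7105 of 37348 genes. With replicate 1 of Upf3b-KO cerebellum included, 6 transcripts rose and 4 fell, and at an adjusted p under 0.01 9 rose and 5 fell. Of all 40281 transcripts tested with replicate 1 included, 2037 rose and 1994 fell.

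The replicate numbers did not pair the libraries (correlations of deviations from -0.0415 to 0.0641), and the replicate block gave 21 lower transcripts in frontal cortex and 5 higher in cerebellum, with 65 lower genes in frontal cortex and 38 higher in cerebellum. Over all tested transcripts the block gave 2148 lower in frontal cortex and 2786 higher in cerebellum. It changed no other count of the ribosomal protein genes beyond 1.5 times.

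Leaving out each library in turn gave 57 to 63 lower and 3 to 4 higher genes and 2 to 3 past the study's limits in frontal cortex, with 6 to 8 higher and 27 to 33 lower transcripts and a dEJ median of 0.01 to 0.22. In cerebellum it gave 32 to 36 higher and 8 to 10 lower genes, 13 to 26 higher transcripts (lowest without Upf3b-KO replicate 3) and 5 to 9 lower (lowest without the same library), and a dEJ median of 0.12 to 0.49 (highest without Upf3b-KO replicate 4). Over all genes, leaving out 1 library gave 4378 to 4459 lower and 4832 to 5039 higher in frontal cortex. In cerebellum it gave 5556 to 5750 higher and 5234 to 5432 lower. Over all transcripts the ranges were 2818 to 3169 higher and 2665 to 2777 lower in frontal cortex, and 4086 to 4981 higher and 3645 to 3986 lower in cerebellum. The interaction count was 61 to 67, beside 4615 to 4840 over all genes. The share of library counts, in the order Ctrl and Upf3b-KO, was 0.647% and 0.598% in frontal cortex and 0.446% and 0.477% in cerebellum without the 20 most abundant genes, and 0.623%, 0.583%, 0.438% and 0.47% with copies added. Of the values of named genes under alternatives, 2263 held their side of the threshold, 80 no longer passed it and 0 reversed. The planned share test was not run on the data.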
